A study of Rattus norvegicus with 28 samples.

Results

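The salt-inducible kinase genes Sik1, Sik2 and Sik3 were followed in RNA-seq libraries of INS-1 cells, a rat insulinoma line with beta cell features. Members were taken by gene symbol from the deposited table of transcript levels, and 2 of the 3 listed genes, Sik1 and Sik3, had a value among the 17455 gene symbols of that table. The transcript level of Sik2 was not analysed here. Each of the 2 genes was represented by 1 transcript, and both passed the minimum mean level of 1 TPM (a transcript's share of all transcripts, a level scaled for transcript length and library depth) that left 10275 genes for testing.

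Salt-inducible kinases belong to the AMPK-related protein kinases and are switched on when LKB1 phosphorylates their activation loop. Active enzymes phosphorylate CRTC coactivators and class IIa histone deacetylases, which are then held in the cytoplasm by 14-3-3 proteins. When cAMP rises, PKA phosphorylates the salt-inducible kinases and stops this restraint, so that CRTCs enter the nucleus and act with CREB, and Sik1 is itself a known CREB target in many tissues.

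The study asked how cAMP signals reach transcription in beta cells through a serine (S983) of Med14, a scaffold subunit of the Mediator complex. Wild-type cells (WT) were compared with CRISPR knock-in cells in which that serine is replaced by alanine (Med14 S983A). Both genotypes were washed, placed in serum-free medium and left untreated (CON) or given 10 nM Exendin-4 (Ex-4), a GLP-1 receptor agonist, or 10 µM forskolin (FSK), an adenylate cyclase activator, for 1, 8 or 16 h. The 14 groups held 2 libraries each, 28 in all. The knock-in was made by expanding sorted single cells, and the methods state that 2 such lines, made independently, were used in the study. The labels do not say which of them gave each library, so an effect of the substitution and a difference between lines cannot be told apart here, and WT and Med14 S983A are called the 2 lines below. The methods call the replicates biological, and the labels do not say what separates the 2 libraries of a group. The p-values measure the spread between libraries of a group, pooled for each gene over the 14 groups and not taken from the compared groups alone. The CON groups carry no time label, and both agents at all times were set against the same CON libraries.

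The libraries held between 42551133 and 92635979 fragments, the deepest being the second Med14 S983A replicate treated with FSK for 8 h and the next deepest 57231981. Beta cell identity was checked with 9 markers, of which 8 had values: Ins1 lay between 33716 and 67834 TPM and the GLP-1 receptor gene Glp1r between 61.0 and 104 TPM. The 5 non-endocrine markers were all under 1 TPM, and Sst, Ppy and Ghrl reached at most 0.171 TPM. Several islet hormones differed between the lines: the glucagon gene Gcg spanned 165 to 1345 TPM in WT and 6.09 to 113 TPM in Med14 S983A, and Ins2 spanned 1080 to 2991 TPM in WT and 6719 to 37516 TPM in Med14 S983A. Iapp, another of the beta cell markers, spanned 6973 to 14797 TPM in WT and 2729 to 3762 TPM in Med14 S983A. Slc2a2, the glucose transporter gene, spanned 228 to 591 TPM in WT and 23.8 to 76.2 TPM in Med14 S983A. The summed level of the 4 other islet cell markers, nearly all of it Gcg, was 166 to 1345 TPM in WT and 6.09 to 113 TPM in Med14 S983A. In bulk RNA a change in the cells that carry a transcript and a change in transcript per cell cannot be told apart.

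Sik1 (NM_021693) lies on chromosome 20 of the rat assembly rn6, between bases 10670747 and 10680279 on the minus strand, with a transcript of 2617 bases. Sik3 (NM_001271216) lies on chromosome 8, between bases 50310263 and 50520284 on the plus strand, with a transcript of 6199 bases. The region around each start site is shown because Sik1 is a cAMP-responsive gene, and the cAMP response element can be looked for in it. Both sequences are from RefSeq on the build GRCr8, run 5′ to 3′ on the strand of the gene and hold 250 bases before and 50 bases after the start, at chr20:9958597-9958896 for Sik1 and chr8:55208764-55209063 for Sik3. Capitals mark each match to the half-site TGACG of the cAMP response element, read on either strand.
Sik1: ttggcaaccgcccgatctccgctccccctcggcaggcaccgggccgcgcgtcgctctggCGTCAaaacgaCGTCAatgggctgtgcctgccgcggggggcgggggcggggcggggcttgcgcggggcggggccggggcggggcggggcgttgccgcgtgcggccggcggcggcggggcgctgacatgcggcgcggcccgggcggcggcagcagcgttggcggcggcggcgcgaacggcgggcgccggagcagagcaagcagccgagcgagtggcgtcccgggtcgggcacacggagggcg
Sik3: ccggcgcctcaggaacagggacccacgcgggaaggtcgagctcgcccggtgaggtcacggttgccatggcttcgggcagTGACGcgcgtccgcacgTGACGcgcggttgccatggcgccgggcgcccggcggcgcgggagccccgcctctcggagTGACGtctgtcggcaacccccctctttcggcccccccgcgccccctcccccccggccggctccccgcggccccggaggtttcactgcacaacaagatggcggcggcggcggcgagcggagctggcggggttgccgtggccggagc

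The Sik1 window held 2 half-sites, both on the opposite strand, which begin 191 and 180 bases before the start. The Sik3 window held 3 half-sites on the gene's own strand, 171, 154 and 95 bases before the start, and the Sik2 window held 2. Among 33469 rat promoter windows of the same length, 21.2% held at least 1 half-site, 4.96% at least 2 and 1.11% at least 3. Neither Sik1 nor Sik3 held the full palindrome TGACGTCA, which contains the half-site and was present in 1.83% of windows, nor the AP-1 motif TGANTCA, present in 7.33%. These matches describe the letters of the windows only. Each Sik window was the first one listed for its symbol and was not matched to the start of the measured transcript.

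Sik1 had the larger changes of the 2 genes. In WT cells at CON it stood at 3.91 and 3.93 TPM, and in Med14 S983A cells at 1.71 and 1.27 TPM. After 1 h it reached 116 and 115 TPM with Ex-4 and 201 and 183 TPM with FSK in WT cells. In Med14 S983A cells the 1 h values were 94.4 and 91.7 TPM with Ex-4 and 178 and 198 TPM with FSK. Every treated group lay above the CON libraries of its genotype without overlap, in both lines and at all 3 times. The treated groups of a line share the same 2 CON libraries, and the share of all genes so separated was not counted.

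The Sik1 transcript then declined. WT cells held 21.5 and 19.7 TPM at 8 h of Ex-4 and 6.69 and 7.36 TPM at 16 h. With FSK they held 82.9 and 82.0 TPM at 8 h and 30.6 and 29.2 TPM at 16 h. The FSK libraries were thus above the Ex-4 libraries at each time.
Med14 S983A cells gave 10.2 and 12.3 TPM at 8 h of Ex-4 and 9.16 and 7.32 TPM at 16 h. With FSK the same line gave 79.4 and 64.4 TPM at 8 h and 23.4 and 20.4 TPM at 16 h. The order of the 14 group means ran from 192 TPM (WT, 1 h FSK) to 1.49 TPM (Med14 S983A, CON). Neighbours in that order overlapped in 3 places: the 1 h FSK groups of both lines, Med14 S983A at 16 h of FSK with WT at 8 h of Ex-4, and the 16 h Ex-4 groups of both lines.

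**Figure D1:**
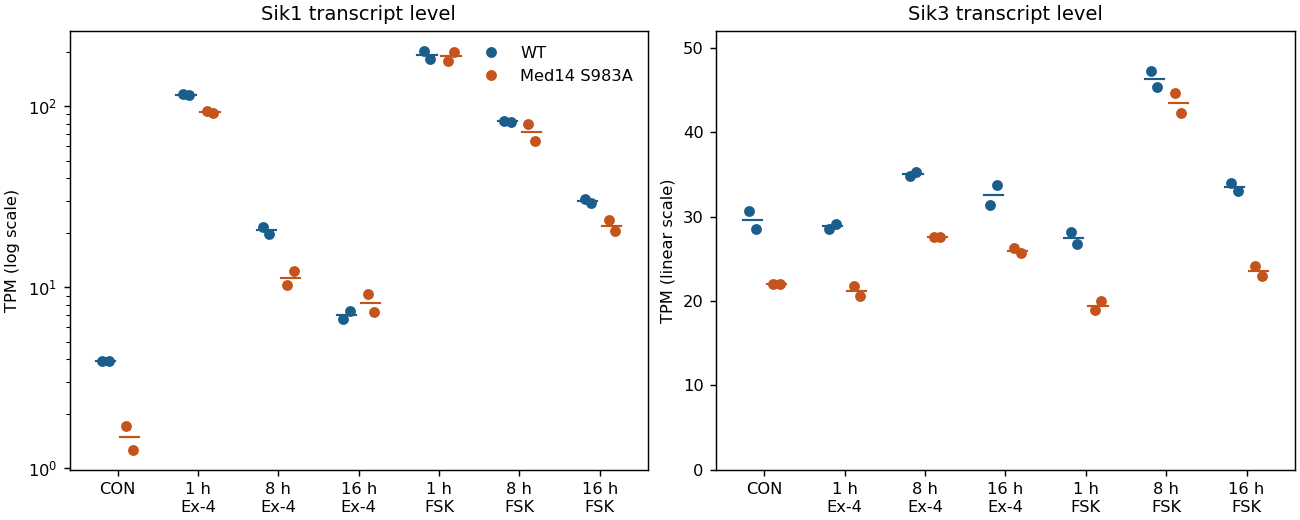
Transcript level of Sik1 (left, log axis) and Sik3 (right, linear axis) in TPM in each of the 14 groups; points are the 2 libraries, short lines their mean, and colours the genotype. Sik1 spans 1.27 to 201 TPM, whereas Sik3 stays between 18.96 and 47.3 TPM and is highest after 8 h of FSK in both lines.

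Against CON of the same genotype, Sik1 was called higher in 12 of 12 treatment comparisons, where a call needs more than a 1.5-fold change and an adjusted p under 0.05 by limma. In WT cells the log2 differences, taken on log2(TPM + 1), were 4.57, 2.13 and 0.70 for Ex-4 at 1, 8 and 16 h and 5.29, 4.08 and 2.65 for FSK, each with an SE of 0.10. The limma adjusted p was 6.6e-22 for the first of these and 1.3e-06 for the smallest, at 16 h of Ex-4. Of all tested genes, 2.87%, 9.6% and 11.8% were called in the 3 Ex-4 comparisons of WT cells and 7.47%, 43.6% and 34.5% in the FSK comparisons.

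Sik1 ranked 4 among the 10275 genes by the size of its change at 1 h of Ex-4 in WT cells and 11 at 1 h of FSK. By 16 h its rank had moved to 753 for Ex-4 and 111 for FSK. In Med14 S983A cells the log2 differences were 5.24, 2.30 and 1.89 for Ex-4 and 6.25, 4.87 and 3.20 for FSK (SE 0.10 each), with limma adjusted p between 1.9e-25 and 2.9e-14. In that line 3.04%, 6.3% and 11.9% of genes were called with Ex-4 and 10.4%, 46.1% and 33.3% with FSK.

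As a plain ratio of mean TPM, Sik1 was 29.5-fold (Ex-4) and 48.9-fold (FSK) above CON at 1 h in WT cells, and 62.4-fold and 126-fold in Med14 S983A cells. These ratios are larger than the log2(TPM + 1) differences because CON levels are low and the pseudocount of 1 weighs on them. At CON the Med14 S983A libraries rested on 124 and 92 fragments of Sik1, against 242.5 and 297.5 in WT, where a fragment is 2 reads. Counting error alone is then about 10.4% for the lowest library.

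**Figure D2:**
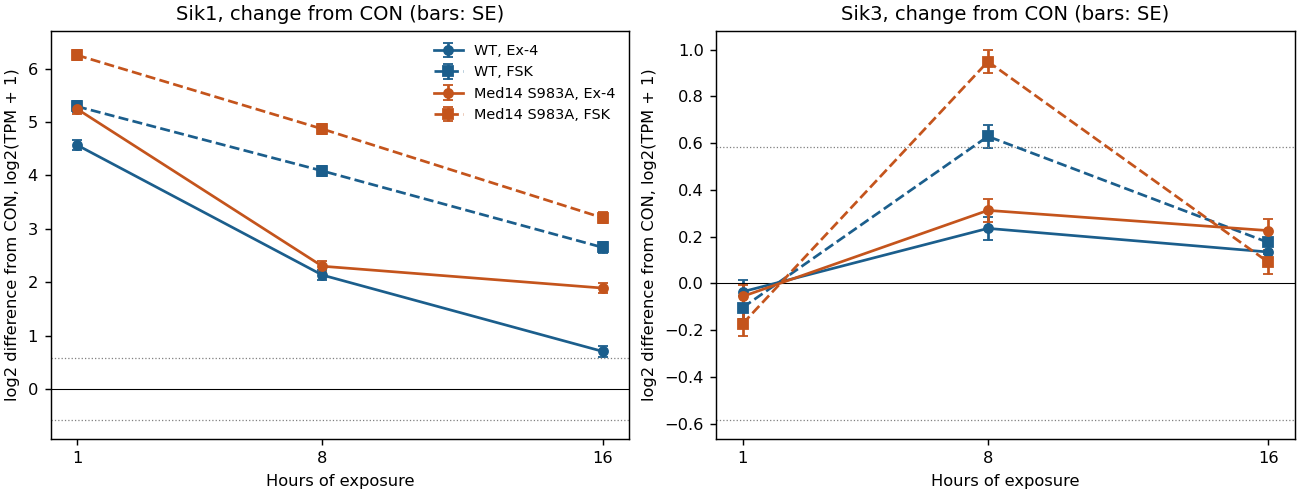
Difference from CON of the same genotype on log2(TPM + 1), with SE, against hours of exposure for Sik1 (left) and Sik3 (right); colours mark the genotype, solid lines Ex-4, dashed lines FSK, and dotted lines 1.5-fold. Sik1 is highest at 1 h (4.57 to 6.25) and falls with time, while Sik3 peaks at 8 h and passes 1.5-fold only with FSK (0.63 and 0.95).

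Less of the Sik1 rise was left at later times with Ex-4 than with FSK. Of the rise in mean TPM present at 1 h, 14.9% was left at 8 h and 2.77% at 16 h of Ex-4 in WT cells, against 41.8% and 13.8% with FSK. In Med14 S983A cells 10.7% and 7.37% were left with Ex-4 and 37.7% and 10.9% with FSK. These shares come from group means and carry no error. From 1 to 8 h the log2 change of Sik1 was −2.44 (Ex-4) and −1.21 (FSK) in WT and −2.95 and −1.38 in Med14 S983A, all called, where 8%, 38%, 6.07% and 42.7% of tested genes were called.

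From 8 to 16 h Sik1 fell by 1.43 with both agents in WT cells and by 1.66 with FSK in Med14 S983A cells, all 3 called. With Ex-4 in Med14 S983A cells the change was −0.41 (SE 0.10, limma adjusted p 0.0019), under 1.5-fold and so not called. The background of called genes in these 4 comparisons was 5.58% (WT, Ex-4), 17.6% (WT, FSK), 3.96% (Med14 S983A, Ex-4) and 27.9% (Med14 S983A, FSK). The difference between the 2 lines in this late change was not tested on its own.

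Ex-4 at 10 nM and FSK at 10 µM were also set against each other at the same time. Sik1 was lower with Ex-4 in 6 of 6 such comparisons, and all 6 were called. The log2 differences, Ex-4 minus FSK, were −0.72, −1.95 and −1.95 at 1, 8 and 16 h in WT and −1.01, −2.57 and −1.31 in Med14 S983A (SE 0.10 each), with limma adjusted p of at most 7.4e-06. The same comparisons called 1.79%, 28.1% and 18.7% of tested genes in WT and 3.03%, 36.5% and 16.3% in Med14 S983A.

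Between the lines, Sik1 was lower in untreated Med14 S983A cells. Both Med14 S983A libraries (1.71 and 1.27 TPM) lay below both WT libraries (3.91 and 3.93 TPM), a log2 difference of −0.99 (SE 0.10, limma adjusted p 3.4e-09). Of all tested genes 19.4% were called in this comparison. Among the 50 tested genes nearest to Sik1 on its chromosome, 25 on each side, 7 were called and their median difference was 0.00.

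In treated cells the Sik1 difference between the lines was called in 1 of 6 states, 8 h of Ex-4, at −0.82 (SE 0.10, limma adjusted p 8.5e-08). The values were −0.31 at 1 h of Ex-4 (adjusted p 0.0083), 0.20 at 16 h of Ex-4 (0.082), −0.03 at 1 h of FSK (0.82), −0.20 at 8 h of FSK (0.074) and −0.43 at 16 h of FSK (4.2e-04), all by limma. The 16 h Ex-4 value was −0.01 when levels were scaled on the ERCC spike-in RNAs. The background was 19.7%, 18.8% and 20.8% of genes called at 1, 8 and 16 h of Ex-4 and 20.1%, 21% and 23.3% with FSK. Gcg, Ins2, Iapp and Slc2a2 separated the lines in every state, and their part in the Sik1 and Sik3 differences was not tested.

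The treatment response of Sik1 was larger in Med14 S983A than in WT cells on the log2 scale. The interaction, Med14 S983A response minus WT response, was 0.68 at 1 h (limma adjusted p 0.0076), 0.17 at 8 h (0.44) and 1.19 at 16 h (3.3e-07) for Ex-4, with an SE of 0.14. For FSK it was 0.96 (4.1e-05), 0.79 (5.3e-05) and 0.55 (0.0017), the last under 1.5-fold. Thus 4 of 6 were called, where the background was 0.672%, 2.77% and 7.24% of genes for Ex-4 and 1.64%, 13.9% and 17% for FSK.

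The interactions share the low CON level of Med14 S983A cells. In TPM the rise at 1 h was 112 (Ex-4) and 188 (FSK) in WT and 91.6 and 187 in Med14 S983A, so the ratio between the lines was nearer to even at 1 h than at CON. At 16 h of Ex-4 the rise was 3.10 TPM in WT and 6.75 TPM in Med14 S983A. The median interaction of all tested genes at 16 h of Ex-4 was 0.09, and −0.31 with ERCC scaling. The 1 h Ex-4 interaction was 0.55 (limma adjusted p 0.099) without replicate 2 of Med14 S983A CON and had an adjusted p of 0.059 when genes of low level were kept. The 16 h FSK interaction passed 1.5-fold with a pseudocount of 0.1 (0.90) and with edgeR (0.85).

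**Figure D3:**
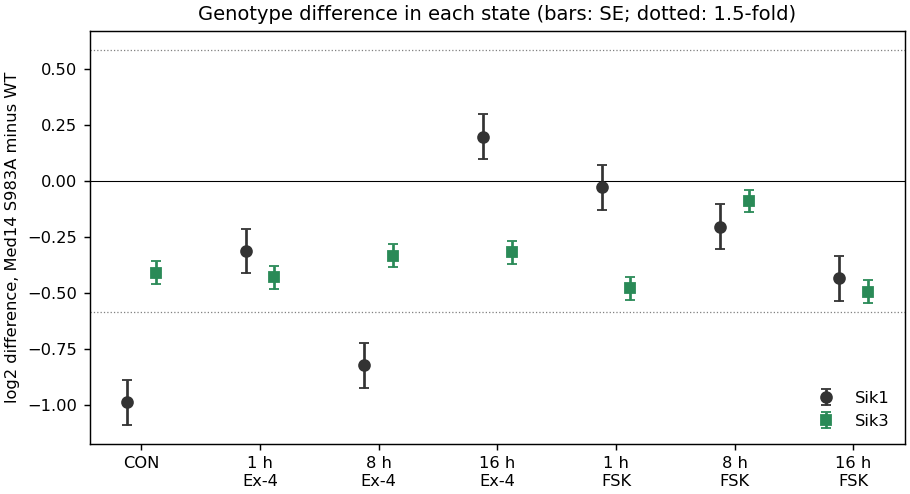
Difference between the lines, Med14 S983A minus WT, on log2(TPM + 1) with SE in each of the 7 states, for Sik1 (circles) and Sik3 (squares); dotted lines mark 1.5-fold. Sik1 lies past the lower line at CON (−0.99) and at 8 h of Ex-4 (−0.82), and Sik3 lies between −0.49 and −0.09 in all 7 states.

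Sik3 moved far less than Sik1. WT cells at CON held 30.7 and 28.6 TPM and Med14 S983A cells 22.06 and 22.04 TPM. After 1 h the WT values were 28.6 and 29.2 TPM with Ex-4 and 28.2 and 26.8 TPM with FSK. The 1 h differences from CON in WT were −0.04 and −0.10 on the log2 scale (SE 0.05, limma adjusted p 0.66 and 0.10). Med14 S983A cells at 1 h held 21.7 and 20.6 TPM with Ex-4 and 18.96 and 19.95 TPM with FSK, differences of −0.06 (limma adjusted p 0.47) and −0.17 (0.0058), neither called.

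Sik3 rose at 8 h of FSK in both lines. WT libraries stood at 47.3 and 45.4 TPM and Med14 S983A libraries at 44.7 and 42.3 TPM, above all other groups. The log2 differences from CON were 0.63 (SE 0.05, limma adjusted p 1.9e-11) and 0.95 (SE 0.05, 3.9e-15), the 2 called among the 12 treatment comparisons of Sik3. Of all tested genes, 43.6% in WT and 46.1% in Med14 S983A were called in these comparisons. As shares of all tested genes, 8.77% and 11.6% were called higher. By the size of its change Sik3 ranked 4187 in WT and 2742 in Med14 S983A among the 10275 genes. Without replicate 2 of WT CON the WT value was 0.58, just under 1.5-fold, and the median of all tested genes was −0.34 in the same comparison (1.02 for Sik3 after each library was centred on its median).

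Ex-4 moved Sik3 less. At 8 h it stood at 34.8 and 35.3 TPM in WT and 27.6 and 27.6 TPM in Med14 S983A, above the CON libraries of each line, with log2 differences of 0.24 (limma adjusted p 3.2e-04) and 0.31 (1.5e-05) that were under 1.5-fold. At 16 h the values were 31.4 and 33.8 TPM with Ex-4 and 34.0 and 33.1 TPM with FSK in WT. The Med14 S983A values at 16 h were 26.3 and 25.6 TPM with Ex-4 and 24.10 and 23.002 TPM with FSK. The 16 h libraries were above the CON libraries of their own line, and no 16 h difference of Sik3 was called (0.09 to 0.23).

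Over time the FSK course of Sik3 turned. It rose by 0.73 in WT and 1.12 in Med14 S983A from 1 to 8 h on the log2 scale, both called. From 8 to 16 h the changes were −0.45 in WT (not called) and −0.86 in Med14 S983A (called). None of the 4 Ex-4 changes was called (−0.10 to 0.37). With ERCC scaling the 8 to 16 h changes were −0.09 and −0.52, and neither passed 1.5-fold.

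Sik3 with Ex-4 was below Sik3 with FSK at 8 h. The log2 differences were −0.39 in WT (limma adjusted p 1.4e-07, not called) and −0.64 in Med14 S983A (1.9e-11, called). At 1 and 16 h the differences lay between −0.04 and 0.14. The WT value passed 1.5-fold after median-centring (−0.66), and the Med14 S983A value did not with ERCC scaling (−0.53).

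Sik3 had lower TPM in Med14 S983A than in WT cells in all 7 states, and in none was the difference past 1.5-fold. The differences were −0.41 at CON (SE 0.05, limma adjusted p 1.1e-07), −0.43, −0.33 and −0.32 at 1, 8 and 16 h of Ex-4, and −0.48, −0.09 and −0.49 with FSK. The libraries of the lines did not overlap in any state, and the share of all genes so separated was not counted. Of all tested genes, between 18.8% and 23.3% were called in these 7 comparisons. With ERCC scaling the values were −0.22 at CON (limma adjusted p 0.093) and 0.01 at 8 h of FSK, so the sign at 8 h of FSK depended on the scaling. Of the 50 tested genes nearest to Sik3, 4 (8%) were called between the lines at CON, against 19.4% of all tested genes. The median of the 50 was 0.06.

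No Sik3 interaction was called. The value of 0.32 at 8 h of FSK (SE 0.07, limma adjusted p 5.7e-04) was the only one with an adjusted p under 0.05, and the other 5 lay between −0.08 and 0.09. With ERCC scaling it was 0.23 (adjusted p 0.29).

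The balance of Sik1 and Sik3 transcripts therefore turned over within 1 h. TPM is scaled for length, so the 2 genes can be set side by side. Sik1 made up 11.7% ± 0.569 (SD, n = 2) of their summed TPM in WT cells at CON and 6.32% ± 1.24 (SD, n = 2) in Med14 S983A cells. At 1 h it made up 80.0% and 81.5% with Ex-4 and 87.5% and 90.6% with FSK in the 2 lines. At 16 h of FSK the genes were close to even, with 47.1% and 48.2%. After 16 h of Ex-4 the shares were 17.7% in WT and 24.03% in Med14 S983A, with no overlap of libraries.

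**Figure D4:**
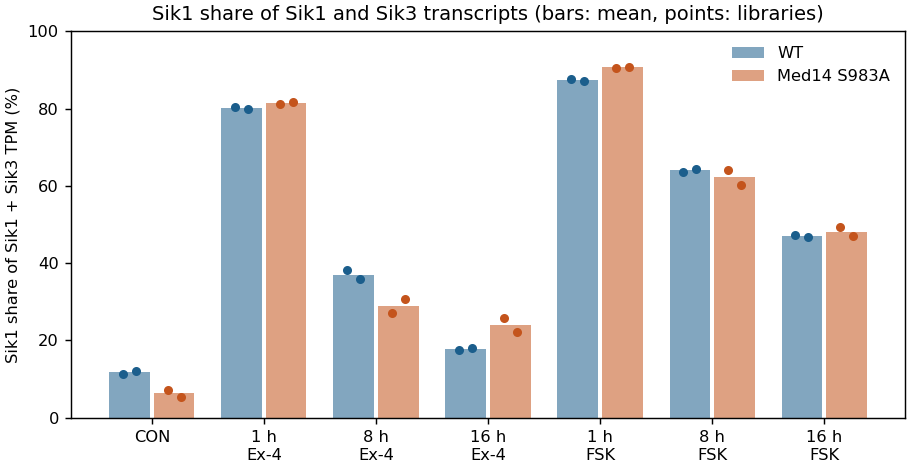
Share of Sik1 in the summed TPM of Sik1 and Sik3 in each group, in percent; bars are means, points the 2 libraries, and colours the genotype. The share is 11.7% and 6.32% at CON, lies between 80.0% and 90.6% at 1 h, and at 8 and 16 h the Ex-4 bars stand below the FSK bars.

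Over the 14 group means the levels of Sik1 and Sik3 had r = 0.07 (Pearson) and rho = −0.09 (Spearman), a description only because groups share CON cells and lines. The 5 genes most like Sik1 by Pearson r over the same 14 means were LOC689986 (0.987), Crem (0.978), Fosl2 (0.976), Id4 (0.973) and Spata2L (0.972). Crem encodes CREB family factors including the cAMP-inducible repressor ICER, Fosl2 is an AP-1 subunit, and Id4 is an inhibitor of DNA-binding helix-loop-helix factors. Fosl2 went from 2.00 TPM at CON to 349 TPM at 1 h of FSK in WT as group means, and Id4 from 45.0 to 407 TPM. Between untreated lines the log2 differences were −1.10 for Crem, −1.37 for Id4, −0.53 for LOC689986, −0.50 for Spata2L and −0.29 for Fosl2. The median of all tested genes was −0.07 in that comparison. All 5 share the sign of Sik1, but both CON means were among the 14 used to pick them. The shared sign is therefore partly built in and is not separate evidence.

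The 5 genes most like Sik3 were Atp2a2 (0.969), Pde4dip (0.954), Ghr (0.950), Patl1 (0.946) and Rab3gap2 (0.945). Atp2a2, the calcium pump SERCA2 of the endoplasmic reticulum, went from 357 TPM at CON to 793 TPM at 8 h of FSK in WT as group means. Ghr, the growth hormone receptor gene, went from 88.1 to 213 TPM. Both are higher at 8 h than at 1 h of FSK, as Sik3 is, which follows from picking them by likeness over means that include these groups.

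The genes that act with salt-inducible kinases were examined as 10 lists with 53 genes, of which 48 had values and 47 were tested. Called higher and lower in WT cells were 1 and 1 of 47 at 1 h of Ex-4, 2 and 5 at 8 h and 1 and 5 at 16 h. With FSK they were 1 and 1, 5 and 15, and 4 and 13. In Med14 S983A cells they were 1 and 0, 1 and 3, and 1 and 2 with Ex-4, and 2 and 1, 6 and 14, and 4 and 13 with FSK. Of all tested genes, 1.75% and 1.12%, 3.61% and 5.99%, and 3.53% and 8.28% were called higher and lower with Ex-4 in WT, and 2.53% and 4.94%, 8.77% and 34.8%, and 10.3% and 24.1% with FSK. In Med14 S983A these shares were 2.03% and 1.00%, 3.21% and 3.09%, and 4.73% and 7.15% with Ex-4, and 3.19% and 7.20%, 11.6% and 34.5%, and 12.2% and 21.1% with FSK. In both directions together, the genes of the lists were called in 4.26%, 14.9% and 12.8% with Ex-4 and 4.26%, 42.6% and 36.2% with FSK in WT, and in 2.13%, 8.51% and 6.38% and 6.38%, 42.6% and 36.2% in Med14 S983A. The share at 8 h of FSK was near the 43.6% and 46.1% of all genes. List medians lay between −0.27 and 0.03 over the 12 comparisons and medians of all tested genes between −0.34 and −0.03.

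Among upstream kinases, the LKB1 gene Stk11 was not called in any treatment comparison. Its pseudokinase partners Strada and Stradb fell at 8 h of FSK, with log2 differences of −1.59 and −1.37 in WT and −1.52 and −1.38 in Med14 S983A. Of the 9 genes for PKA subunits and inhibitors, 2 rose and 3 fell at 8 h of FSK in WT. In that comparison 8.77% of all tested genes were called higher and 34.8% lower. Prkacb, a catalytic subunit, fell, with differences of −2.17 in WT and −2.30 in Med14 S983A, while the more abundant catalytic subunit gene Prkaca was not called at 8 h. The regulatory subunit gene Prkar1a, the most abundant of the list at a mean of 544 TPM, rose by 0.59 and 1.05, and the inhibitor gene Pkib rose by 0.85 in WT.

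Among substrates, Crtc2, the most abundant CRTC gene at a mean of 63.9 TPM, was not called in any treatment comparison. Crtc1 was lower at 16 h of FSK, with log2 differences of −0.89 in WT and −0.81 in Med14 S983A, and both were under 1.5-fold with ERCC scaling. Hdac5, a class IIa histone deacetylase, stood at 136 and 130 TPM in WT CON and at 32.8 and 33.1 TPM at 8 h of FSK. In Med14 S983A it stood at 71.1 and 72.5 TPM at CON and at 7.59 and 8.11 TPM at 8 h of FSK. The log2 differences of Hdac5 were −1.98 and −3.04, with an interaction of −1.06 that was called. Hdac9, at a mean of 1.06 TPM, had log2 differences of −1.49 in WT and −1.15 in Med14 S983A at 8 h of FSK. It passed the minimum mean of 1 TPM only through its groups of higher level, so these values are a description only.

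None of the 6 tested 14-3-3 genes was called in WT cells, where 2.87% to 43.6% of all tested genes were called in a treatment comparison. Ywhag and Ywhaq rose by 0.65 and 0.73 at 8 h of FSK in Med14 S983A, where 11.6% of all tested genes were called higher. The product of the 4 calcineurin genes removes phosphate from CRTCs. The 3 catalytic ones fell at 8 h of FSK in both lines (−0.93 to −0.68), and in both lines all 3 were under 1.5-fold after median-centring. Of all tested genes, 34.8% in WT and 34.5% in Med14 S983A were called lower in these comparisons. Crem was called higher in all 12 treatment comparisons. It stood at 11.7 and 10.6 TPM in WT CON and at 290 and 276 TPM at 1 h of FSK. In Med14 S983A it stood at 5.48 and 3.97 TPM at CON and at 410 and 480 TPM at 1 h of FSK. The Crem interactions were 1.46 and 1.98 at 1 and 16 h of Ex-4 and 1.74, 1.38 and 1.31 with FSK, all called, and 0.29 at 8 h of Ex-4 (limma adjusted p 0.084), not called.

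Cdk5r1, the CDK5 activator p35 named as a target of SIK2 in beta cells, fell at 8 and 16 h of FSK, with log2 differences of −2.61 and −2.83 in WT and −1.22 and −1.48 in Med14 S983A. Its interactions were 1.39 and 1.35, both called. Between untreated lines Cdk5r1 had a log2 difference of −2.40, the largest among the 47 genes. Among 11 AMPK and related kinase genes, Nuak1 rose by 1.302 and 1.19 at 8 and 16 h of FSK in WT, with interactions of −1.26 and −0.95. Nuak2, at a mean of 1.26 TPM, fell at 1 h of Ex-4 and FSK in WT (−0.66 and −0.76). The first of these was just under 1.5-fold after median-centring (−0.58). Between the lines Nuak2 differed by −0.09 at CON, 0.04 at 1 h of Ex-4 and −0.16 at 1 h of FSK, none of them called.

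At CON 9 of the 47 genes were called between the lines, 3 of them with more transcript in Med14 S983A and 6 with less, 19.1% in all against 19.4% of all tested genes. Hdac4 (1.19), Pja2 (0.87) and Cab39 (0.64) were the higher ones. Besides Cdk5r1, the lower ones were Pkib (−1.18), Ppp3cb (−1.13), Crem (−1.10), Hdac5 (−0.88) and Prkar2a (−0.60), and Prkar2a was under 1.5-fold with ERCC scaling (−0.40).

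**Figure D5:**
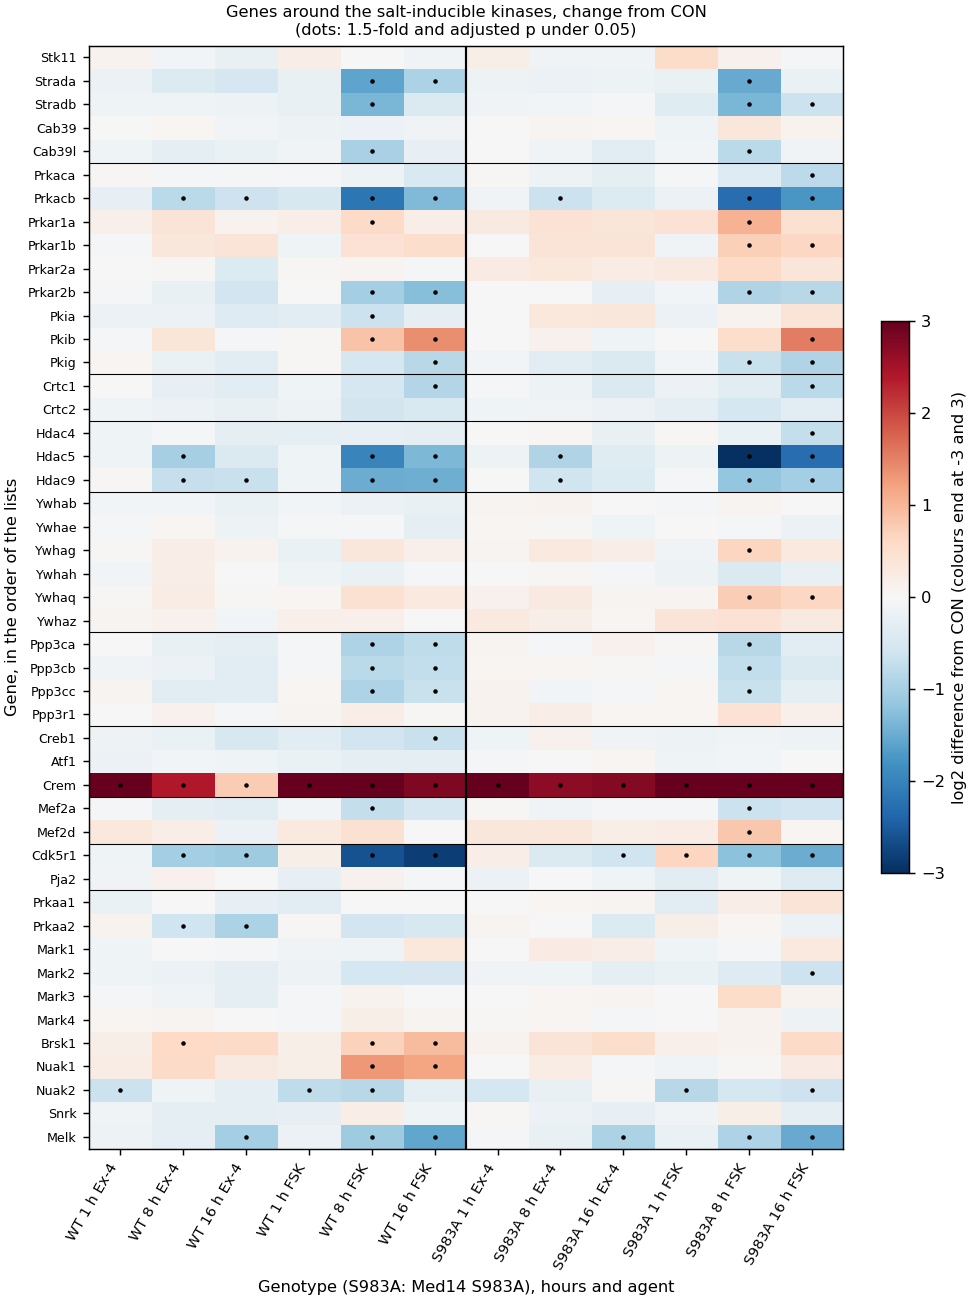
Log2 difference from CON of the same genotype for the 47 tested genes (rows, in list order, lines between lists) in the 12 treatment comparisons (columns, WT left and Med14 S983A right); dots mark calls and colours end at −3 and 3. Crem is called in all 12 columns. At 8 h of FSK 20 of 47 genes are called in each line, against 43.6% (WT) and 46.1% (Med14 S983A) of all tested genes.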

How the data were processed

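Total RNA with ERCC spike-ins added before library construction was sequenced from 28 INS-1 libraries in 14 groups of 2. The authors aligned reads to rn6 with STAR 2.5.3a and quantified transcripts with HOMER 4.11.1. The deposited gene values are TPM per transcript and the deposited spike-in table holds counts for 92 ERCC sequences. Groups came from sample titles, and the library numbers in column names differ from those in the labels. For each symbol the transcript with the highest mean TPM was kept, and ERCC rows were left out of the tests. Differences of log2(TPM + 1) were fitted over all 14 groups with limma 3.58.1 in R 4.3.3, two-sided, with Benjamini-Hochberg adjustment over the 10275 genes whose mean reached 1 TPM. A call needed an adjusted p under 0.05 and more than 1.5-fold. A difference on log2(TPM + 1) understates the change of low genes. TPM removes the total depth of a library, and the spike-ins were added to a fixed mass of RNA, so neither shows a change in total RNA per cell.

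The study ran DESeq2 1.24.0 with ERCC size factors. Fragments recovered from TPM, transcript length and ERCC counts were rounded and tested with edgeR 4.0.16 and DESeq2 1.42.0 as alternatives. At 2 reads per fragment, 100% of 175533 values were whole to within 0.05 reads plus the rounding error of TPM, against 22.9% by chance. The values checked were those of low fragment number and small rounding error. On simulated counts for WT 1 h Ex-4 against CON, 10275 genes, limma recovered 99% of 2-fold changes. Each gene was simulated at its mean over all libraries, and changes were added to that 1 group alone. The recovery therefore does not cover Sik1 at its low CON level, the interactions or the FSK comparisons. Other alternatives were a pseudocount of 0.1, no filter or a mean of at least 5 TPM, median-centring, ERCC scaling, the libraries of the contrast alone, a replicate block, summed transcripts and leaving out each library. Counting error limits Sik1 at CON, and Sik3 rested on at least 3257.5 fragments.

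Members, gene lists and tests were chosen with earlier results of these data known. Genes of the lists were named where called in a comparison described or as the most abundant of their list, and the 5 genes of highest Pearson r over the 14 group means were named as most like each member. Promoter windows came from RefSeq (GRCr8). The listed genes Crtc3, Hdac7, Sfn, Mef2c and Brsk2 and the marker Mafa were not analysed here, and Mef2b was below 1 TPM.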

Additional observations from a re-analysis of the deposited data

Results flagged for a closer look

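The response of Sik1 to treatment differed between Med14 S983A and WT cells by the interaction test in limma. The differences of the log2 responses were 0.68 at 1 h of Ex-4, 1.19 at 16 h of Ex-4, 0.96 at 1 h of FSK, 0.79 at 8 h of FSK and 0.55 at 16 h of FSK, each with an adjusted p under 0.05. All 5 share the CON libraries of Med14 S983A, where Sik1 stood at 1.71 and 1.27 TPM against 3.91 and 3.93 TPM in WT, so they are not separate evidence. The response of Sik3 differed by 0.32 at 8 h of FSK, also with an adjusted p under 0.05.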

How the results depend on the processing

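Of 609 alternative values of Sik1, 600 stayed on the same side of the threshold, as did 598 of 609 of Sik3, and no called difference changed sign. Sign changes occurred 7 times for Sik1 and 25 times for Sik3, among differences of at most 0.20 and 0.14. The Sik1 interaction at 16 h of FSK passed 1.5-fold with a pseudocount of 0.1 (0.903), edgeR (0.848), DESeq2 (0.858) and DESeq2 with ERCC size factors (0.822), and ranged from 0.426 to 0.683 when single libraries were left out. The Sik1 interaction at 1 h of Ex-4 lost its call without the filter (0.676, adjusted p 0.0589) and ranged from 0.547 to 0.804 over left-out libraries; it was lost without replicate 2 of Med14 S983A CON. The Sik3 difference at 8 h of FSK in WT ranged from 0.578 to 0.679.

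In WT cells, Sik3 with Ex-4 against FSK at 8 h was called with median-centring (−0.662), edgeR (−0.641) and DESeq2 (−0.653), and so was its change from 8 to 16 h of FSK (−0.603, −0.602 and −0.602). In Med14 S983A cells the same 2 calls for Sik3 were lost with ERCC scaling (−0.531 and −0.522) and with DESeq2 and ERCC size factors (−0.552 and −0.554). The causes were not tested.

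The replicate numbers showed no pairing common to all groups. Over 91 pairs of groups the correlation of replicate differences was −0.28 to 0.283 (median 0.0035), with 17 over 0.1. Whether some of the groups were paired cannot be told from these values. With the replicate block, the CON difference of Sik1 stayed at −0.988 and no call of Sik1 or Sik3 changed.

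Of 2832 alternative values of called pathway genes, 172 lost their call and none changed sign. Of 609 counts of called pathway genes, 41 moved by over 1.5 times; among the larger counts, 6 at 16 against 8 h of FSK in WT became 11 with ERCC scaling, and 9 in Med14 S983A became 15 with edgeR.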
